A study of Homo sapiens with 8 samples.

Results

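The small nucleolar RNA (snoRNA) host long noncoding RNAs examined here were SNHG1, SNHG3, SNHG5, SNHG6, SNHG7, SNHG8, SNHG12, SNHG15, GAS5 and ZFAS1, 10 genes of the 43317 with a probe on the array. They were chosen by name, as all probes whose gene name in the array files is one of these symbols, which gave 26 of 58201 probes. Human cancer cell lines were transfected with a mature microRNA or a small interfering RNA, and RNA of transfected cells (Cy5) was hybridised with RNA of mock cells of the same line (Cy3) on 2-colour oligonucleotide arrays, 1 array per condition and 8 in all. FaDu, a line of hypopharyngeal squamous cell carcinoma, received miR-99a-5p or miR-99a-3p. PC3, a line of prostate cancer, received miR-150-5p, miR-150-3p, miR-99a-3p or miR-100-3p. PANC-1, a line of pancreatic cancer, received one of 2 siRNAs against the transcription factor FOXQ1, si-FOXQ1-1 or si-FOXQ1-2. The labels describe the mock cells as not transfected, no array with a control microRNA was analysed here, and dyes were not swapped, so dye, transfection and agent cannot be told apart on any array. With 1 array per condition no test was possible, and every ratio describes 1 pair of RNA samples.

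snoRNAs guide the chemical modification of ribosomal RNA, and most human ones are cut out of introns. Box C/D snoRNAs guide methylation and box H/ACA snoRNAs guide pseudouridylation. In the genes described here the introns carry the snoRNAs, and the spliced exons form a long noncoding RNA. Several of these spliced RNAs begin with a terminal oligopyrimidine (TOP) tract, as do the mRNAs of ribosomal proteins, whose translation depends on the mTORC1 kinase. Some, GAS5 among them, are engaged by ribosomes and removed by nonsense-mediated decay, so that their level can follow translation as well as transcription. GAS5 was named for its accumulation in growth-arrested cells. GAS5, SNHG1, SNHG5, SNHG6 and ZFAS1 carry box C/D snoRNAs, SNHG3, SNHG7, SNHG8 and SNHG15 carry box H/ACA snoRNAs, and SNHG12 carries both kinds.

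The transfected microRNAs are shown first, as agents compared below, with their seeds, bases 2 to 8, in capitals. The part of the seeds in the differences between agents was not tested. These 3 of the 5 microRNAs were found in the RefSeq table (GRCh38.p14). The arms miR-99a-5p and miR-99a-3p of a shared hairpin have different seeds. Counting from the 5′ end of the microRNA, miR-100-3p differs from miR-99a-3p at 5 bases, and 1 of them, C7U, lies in the seed.
miR-99a-5p: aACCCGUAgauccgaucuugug
miR-99a-3p: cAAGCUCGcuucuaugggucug
miR-100-3p: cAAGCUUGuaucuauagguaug

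The annotated starts of the host genes are shown because a TOP tract begins at the first transcribed base. Of the 10 genes, 8 were found in the RefSeq promoter table (GRCh38.p14). Each line gives 10 bases before the annotated start and 30 bases from it on, and capitals mark the unbroken run of C or T that begins at the start.
SNHG1 (chr11:62855856-62855895, minus strand): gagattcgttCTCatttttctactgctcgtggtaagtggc
SNHG3 (chr1:28505933-28505972, plus strand): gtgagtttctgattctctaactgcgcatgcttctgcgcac
SNHG5 (chr6:85678704-85678743, minus strand): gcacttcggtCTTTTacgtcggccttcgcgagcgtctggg
SNHG7 (chr9:136728155-136728194, minus strand): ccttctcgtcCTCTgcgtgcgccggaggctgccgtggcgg
SNHG8 (chr4:118278752-118278791, plus strand): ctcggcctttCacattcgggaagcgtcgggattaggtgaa
SNHG12 (chr1:28581844-28581883, minus strand): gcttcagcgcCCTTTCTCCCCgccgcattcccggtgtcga
GAS5 (chr1:173869016-173869055, minus strand): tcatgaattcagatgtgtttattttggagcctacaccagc
ZFAS1 (chr20:49278632-49278671, plus strand): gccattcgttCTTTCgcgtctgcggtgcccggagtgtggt

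A C at the annotated start followed by C or T, in a run of at least 4 bases read on the gene's own strand, was present at 4 of these 8 starts, those of SNHG5, SNHG7, SNHG12 and ZFAS1. The run was 11 bases in SNHG12, 5 bases in SNHG5 and in ZFAS1, and 4 bases in SNHG7. The same rule was met by 1914 of 35116 annotated starts (5.45%), by 48 of the 78 starts of ribosomal protein genes and by 9 of the 12 starts of other genes listed as TOP mRNAs. Such a match is a description of the annotated base, and annotated starts can lie away from the used one. The starts were found by gene name, not by the transcript of the array probes. A start without the match, such as the one printed for GAS5, thus does not show that the measured RNA lacks a TOP tract.

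Ratios are log2 of Cy5 over Cy3, so a negative value means a lower level in transfected cells. Of the 26 probes, 24 were well above background in both channels wherever they were kept, and 2 were not well above background in either channel of any array, 1 of SNHG1 and 1 of SNHG8. One spot, of SNHG5 on the FaDu miR-99a-5p array, carried an outlier flag and was left out, and no spot of these genes was saturated. SNHG3, SNHG12 and ZFAS1 had 1 probe each. A gene is given by its brightest probe unless another is named, and all 10 genes were measured on all 8 arrays. The error given with a ratio is that of the scanner software for the spot. It covers the measurement of a spot only, not the spread between cultures.

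On each array 19184 to 20919 genes were detected, and their median ratio lay between -0.03 and 0.02. FOXQ1, the gene targeted in PANC-1, had a ratio of -2.16 with si-FOXQ1-1 and -2.12 with si-FOXQ1-2. Its ratio was -1.29 in PC3 with miR-150-3p and 0.89 in PC3 with miR-99a-3p. The squamous markers KRT5, KRT14, TP63 and DSG3 were detected on the FaDu arrays only. SFN, also on the squamous list, was above background in both channels of all 8 arrays and so did not set FaDu apart. CTNNA1, lost in PC3, was not detected on any PC3 array. CDKN2A, listed as lost in PANC-1, was above background on all 8 arrays, but with a Cy3 signal of 284 and 299 in PANC-1 against 5376 to 24363 in the other lines. The markers of other cell types were mostly dim, with PTPRC above background in both channels of 0 arrays, CD3E of 1 and PECAM1 of 3.

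The host RNAs were lower most broadly in FaDu with miR-99a-3p. There 6 of the 10 genes, SNHG5, SNHG6, SNHG7, SNHG8, GAS5 and ZFAS1, were lower than mock by at least 1.5-fold and none was higher. Of all detected genes on that array 19.4% were lower by that fold and 18.1% were higher. The median ratio of the 10 genes was -0.80. In PC3 with the same microRNA 4 genes, SNHG1, SNHG3, SNHG8 and SNHG12, were lower and none was higher, and the median was -0.45. The background on that array was 16.6% lower and 12.8% higher. SNHG1, SNHG3 and SNHG8 passed the fold there by less than their scanner errors, as did SNHG6 in FaDu. SNHG8 was the only gene past the fold in both lines. In FaDu the squamous markers were lower as well with miR-99a-3p, 4 of the 5 on the list by 1.5-fold, and their part in the result was not tested.

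**Figure D1:**
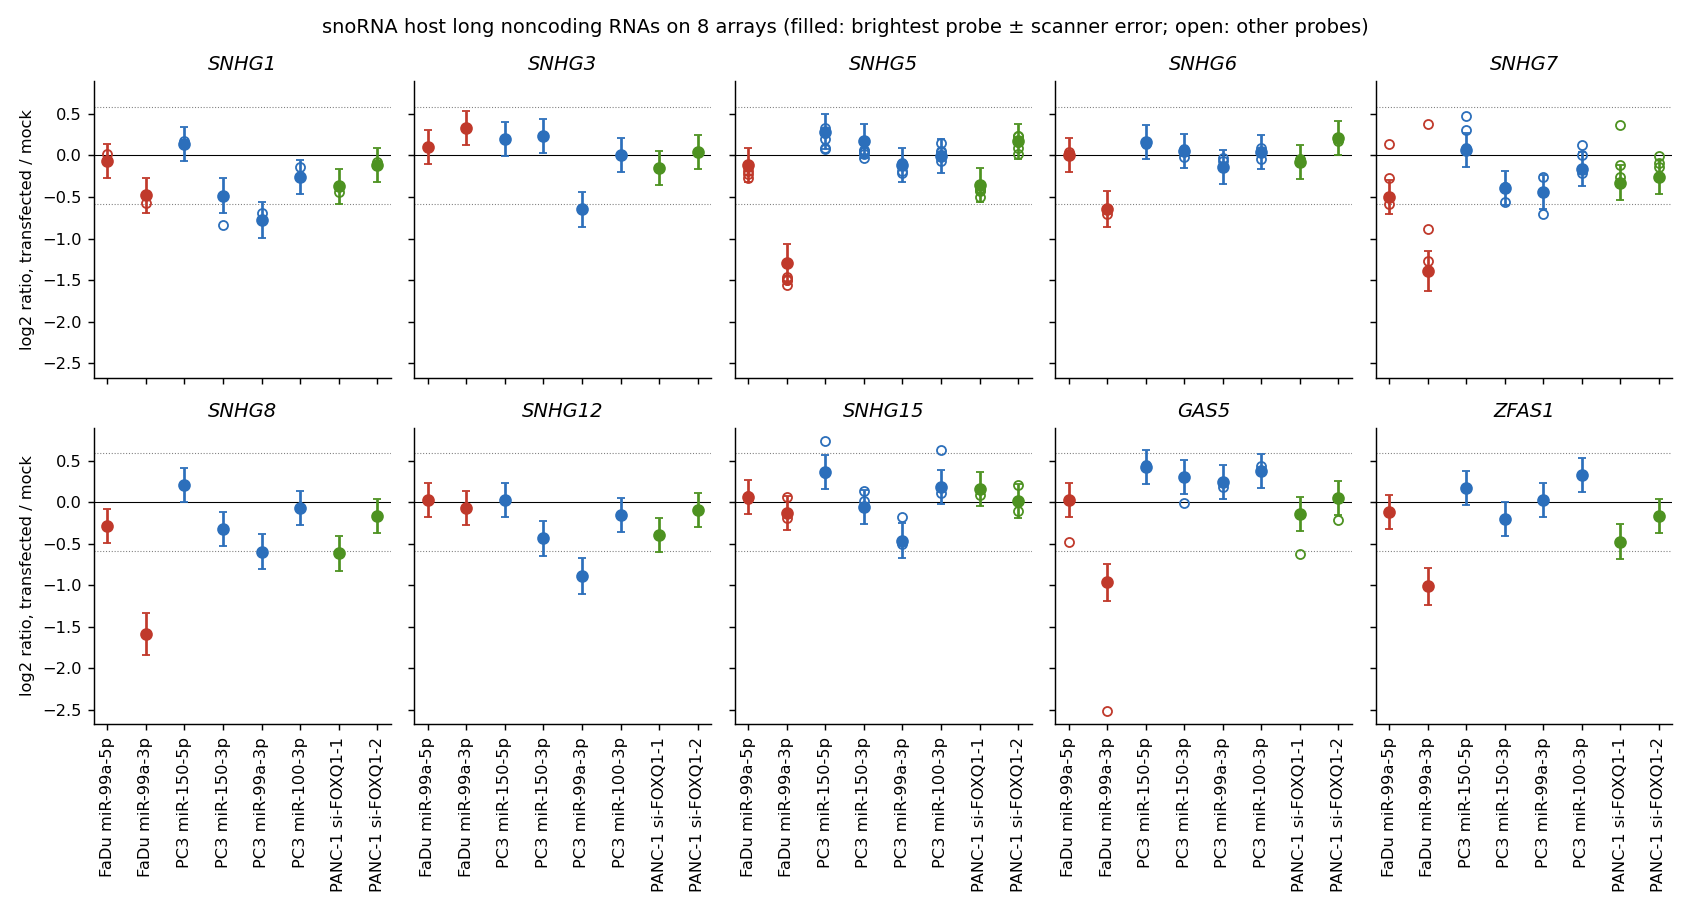
Log2 ratio of transfected over mock cells (vertical axis) for each host RNA on the 8 arrays (horizontal axis), with FaDu in red, PC3 in blue and PANC-1 in green. Filled points are the brightest probe with the scanner error as bars, open points are the other probes, and dotted lines mark 1.5-fold. The lowest points of SNHG5, SNHG6, SNHG7, SNHG8, GAS5 and ZFAS1 are those of FaDu with miR-99a-3p, and those of SNHG3, SNHG12 and SNHG15 are of PC3 with miR-99a-3p.

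On the other arrays few or none of the 10 genes passed the fold. In FaDu with miR-99a-5p none was lower or higher, against 9.93% and 4.75% of all detected genes, and the median was -0.03. In PC3 none passed with miR-150-5p (10.1% of all genes lower, 4.46% higher), with miR-150-3p (14.7% lower, 9.54% higher) or with miR-100-3p (8.82% lower, 4.41% higher). The medians on these arrays were 0.18, -0.13 and 0.00. With miR-150-5p all 10 ratios were above 0, between 0.03 for SNHG12 and 0.42 for GAS5, while all detected genes had a median of -0.01. Also above 0 on that array were 67 of 77 ribosomal protein mRNAs, 12 of 15 other TOP mRNAs and 9 of 11 other snoRNA hosts. In PANC-1 only SNHG8 passed with si-FOXQ1-1, where 8.41% of all genes were lower and 3.93% higher, and none passed with si-FOXQ1-2, where the shares were 7.75% and 2.90%. The medians were -0.34 and -0.04.

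Among the box C/D hosts, GAS5 had the largest ratios on any probe. Its brightest probe, at base 562 of the transcript, gave -0.96 ± 0.22 in FaDu with miR-99a-3p and 0.02 with miR-99a-5p. The same probe gave 0.42 with miR-150-5p, 0.30 with miR-150-3p, 0.24 with miR-99a-3p and 0.37 with miR-100-3p in PC3, and -0.14 and 0.05 with si-FOXQ1-1 and si-FOXQ1-2 in PANC-1. The GAS5 ratio was thus above 0 on all 4 PC3 arrays and was lower by 1.5-fold on 1 FaDu array. The other GAS5 probe gave a far lower ratio in FaDu with miR-99a-3p, -2.51 ± 0.31, and -0.48 with miR-99a-5p. On the PC3 arrays it gave 0.45, -0.01, 0.18 and 0.44 in the same order of agents, and in PANC-1 -0.63 and -0.22. The probes differed by 1.55 in FaDu with miR-99a-3p and by 0.06 in PC3 with miR-99a-3p. The size of the GAS5 ratio thus depends on the probe, and the sequence of the brightest is shown as the one behind the GAS5 values that follow.
GAS5 probe at base 562 (hg19 chr1:173833049-173833108, minus strand): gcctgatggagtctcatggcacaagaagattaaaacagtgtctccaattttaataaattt

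SNHG5, the host of the U50 box C/D snoRNAs, was lower in FaDu with miR-99a-3p on every one of its 6 probes, at ratios of -1.56 to -1.30. Its brightest probe gave -1.30 ± 0.24 there, -0.12 with miR-99a-5p, and in PC3 0.29 with miR-150-5p, 0.17 with miR-150-3p, -0.12 with miR-99a-3p and -0.01 with miR-100-3p. In PANC-1 the ratio was -0.36 with si-FOXQ1-1 and 0.17 with si-FOXQ1-2. The 6 probes lie between bases 96 and 330 of the transcript and some overlap, so they are not separate measurements of the RNA. On every array but FaDu with miR-99a-3p the SNHG5 values stayed within 1.5-fold of mock.

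SNHG6, the host of SNORD87, gave -0.64 ± 0.21 in FaDu with miR-99a-3p, and its 3 probes spanned -0.70 to -0.64. On the other 7 arrays the brightest probe stayed between -0.14 and 0.20. ZFAS1, which lies antisense to the start of ZNFX1 and carries SNORD12, SNORD12B and SNORD12C, gave -1.01 ± 0.22 in FaDu with miR-99a-3p and -0.12 with miR-99a-5p. In PC3 its ratio was 0.17 with miR-150-5p, -0.20 with miR-150-3p, 0.03 with miR-99a-3p and 0.33 with miR-100-3p, and in PANC-1 -0.47 and -0.17. Both RNAs were thus lower by 1.5-fold on 1 array of 8.

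SNHG1, the U22 host gene, differed from the other box C/D hosts in the array on which it was lowest. Its brightest probe, at base 945, gave -0.78 ± 0.22 in PC3 with miR-99a-3p, -0.48 with miR-150-3p, -0.26 with miR-100-3p and 0.13 with miR-150-5p. In FaDu it gave -0.48 with miR-99a-3p and -0.07 with miR-99a-5p, and in PANC-1 -0.37 and -0.12. The probe at base 90 gave -0.69 in PC3 with miR-99a-3p and -0.83 with miR-150-3p, so with that probe SNHG1 passed 1.5-fold on both arrays. In FaDu with miR-99a-3p it gave -0.57.

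Among the box H/ACA hosts, SNHG8, the host of SNORA24, had the lowest ratio of any brightest probe, -1.58 ± 0.25 in FaDu with miR-99a-3p, or 2.99-fold lower than mock. This ratio lay above only 4.14% of the detected genes on that array. It was -0.29 with miR-99a-5p, and in PC3 0.21 with miR-150-5p, -0.33 with miR-150-3p, -0.60 with miR-99a-3p and -0.07 with miR-100-3p. In PANC-1 it was -0.61 with si-FOXQ1-1 and -0.17 with si-FOXQ1-2. SNHG8 was thus lower by 1.5-fold on 3 arrays, 1 in each line, and the siRNAs against FOXQ1 differed by -0.45 ± 0.29 in it. In PC3 and PANC-1 it passed the fold by less than its scanner error.

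SNHG7, the host of SNORA17, gave -1.39 ± 0.24 in FaDu with miR-99a-3p and -0.50 with miR-99a-5p. In PC3 its ratio was 0.06 with miR-150-5p, -0.40 with miR-150-3p, -0.44 with miR-99a-3p and -0.16 with miR-100-3p, and in PANC-1 -0.33 and -0.26. Its 4 probes did not move alike. In FaDu with miR-99a-3p the probes at bases 766, 357 and 907 gave -1.39, -1.27 and -0.89, whereas the probe at base 1814 gave 0.37 ± 0.21. Bases 766 and 907 are counted on the same SNHG7 transcript, and bases 357 and 1814 each on a different one. In PC3 with miR-99a-3p the order was turned, with -0.71 for the probe at base 1814 and -0.44, -0.44 and -0.27 for the others. These sequences are shown because the direction of SNHG7 in FaDu depends on them.
SNHG7 probe at base 766 (hg19 chr9:139619188-139619247, minus strand): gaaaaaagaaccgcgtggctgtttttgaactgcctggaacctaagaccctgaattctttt
SNHG7 probe at base 1814 (hg19 chr9:139619969-139620028, minus strand): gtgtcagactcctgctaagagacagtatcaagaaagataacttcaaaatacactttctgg

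SNHG3, the U17 host gene, was lower in PC3 with miR-99a-3p only, at -0.65 ± 0.21. In FaDu with the same microRNA its ratio was 0.33 ± 0.21, and with miR-99a-5p it was 0.10. The other PC3 arrays gave 0.19 with miR-150-5p, 0.23 with miR-150-3p and 0.01 with miR-100-3p, and PANC-1 gave -0.15 and 0.04. SNHG15, the host of SNORA9, did not pass the fold on any array with its brightest probe. It was lowest in PC3 with miR-99a-3p, at -0.46 ± 0.21, and highest in PC3 with miR-150-5p, at 0.36. Its probe at base 37 gave higher ratios than the others in PC3, 0.73 with miR-150-5p and 0.63 with miR-100-3p, where the brightest probe gave 0.36 and 0.18.

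SNHG12, which carries snoRNAs of both kinds, had the lowest ratio of the 10 genes in PC3 with miR-99a-3p, -0.89 ± 0.22, or 1.85-fold lower than mock. With miR-150-3p it gave -0.44, with miR-100-3p -0.15 and with miR-150-5p 0.03. In FaDu it gave -0.07 with miR-99a-3p and 0.03 with miR-99a-5p, and in PANC-1 -0.39 and -0.09. SNHG12 and SNHG3 were thus the genes lowered in PC3 whose FaDu ratio under the same microRNA was near or above 0.

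Set side by side, miR-99a-3p gave different patterns over the 10 genes in FaDu and PC3. The PC3 ratio less the FaDu ratio was 1.21 for GAS5 and -0.98 for SNHG3, each with a combined scanner error of 0.30. For both genes the ratios of the brightest probe had opposite signs, each past its own scanner error. The other GAS5 probe gave 0.18 ± 0.20 in PC3, within its error. The difference of PC3 less FaDu was also positive for SNHG5 (1.18), ZFAS1 (1.04), SNHG8 (0.98), SNHG7 (0.95) and SNHG6 (0.50). It was negative for SNHG12 (-0.81), SNHG15 (-0.34) and SNHG1 (-0.29). For SNHG1 it was no larger than the combined error of 0.30. Line, culture and array cannot be told apart in this comparison.

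**Figure D2:**
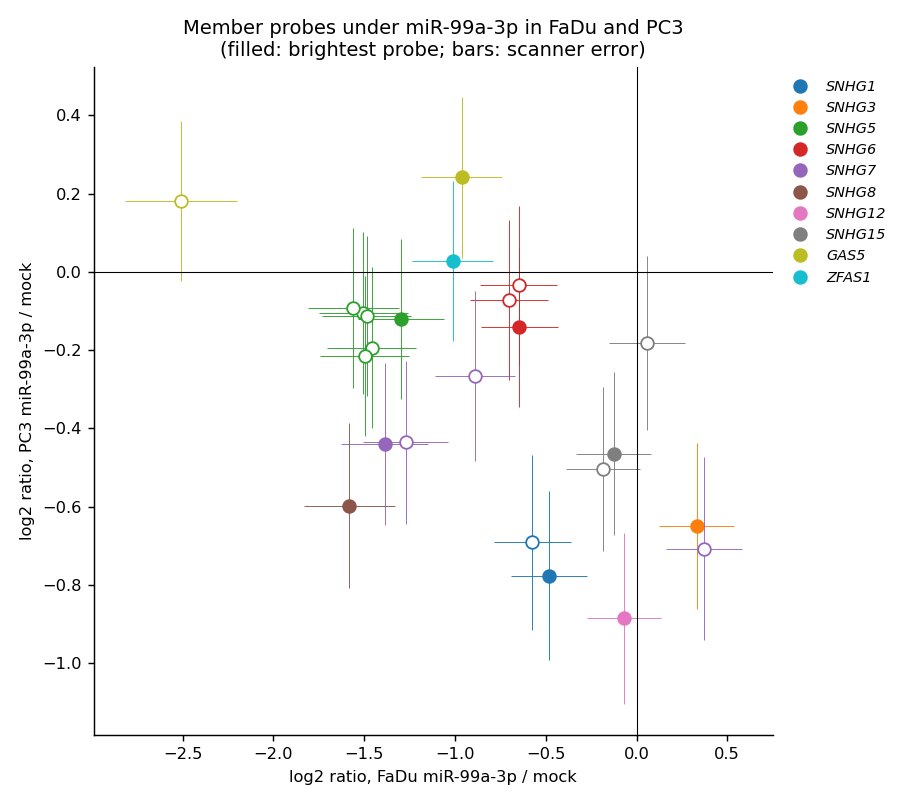
Log2 ratio of each of the 24 measured probes with miR-99a-3p in FaDu (horizontal axis) and in PC3 (vertical axis), coloured by gene, with the scanner error as bars and the brightest probe of a gene filled. GAS5 and ZFAS1 lie low in FaDu and at or above 0 in PC3, SNHG3, SNHG12 and the SNHG7 probe at base 1814 lie near or above 0 in FaDu and low in PC3, and SNHG8 is low in both.

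Agents given to the same line were compared by their combined scanner errors, as a description. The share of all detected genes that differ by more than 2 combined errors was not computed, so the counts have no background beside them. In FaDu 6 of the 10 genes were lower with miR-99a-3p than with miR-99a-5p by more than 2 combined errors. These were the 6 genes past the fold, and the same miR-99a-3p ratios enter both counts. In PC3 3 genes, SNHG3, SNHG12 and SNHG15, were lower with miR-99a-3p than with miR-100-3p by that measure, with differences of -0.66, -0.74 and -0.64 on the log2 scale. SNHG1 alone was lower with miR-150-3p than with miR-150-5p, with a difference of -0.62. With the mean of a line's mock channels as the control that difference was -0.56 and no longer past 2 combined errors. That control left 5 of the 6 genes in FaDu, without SNHG6, whose ratio with miR-99a-3p was then -0.51 and under the fold, and all 3 in PC3 with miR-99a-3p. None of the 10 genes differed between si-FOXQ1-1 and si-FOXQ1-2 by that measure, although the median difference was -0.27. With si-FOXQ1-1 9 of the 10 ratios were below 0, on an array where all detected genes had a median of -0.02.

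The snoRNAs did not follow their hosts uniformly. Of 33 snoRNAs in the 10 genes, 25 had a probe, in 7 of the hosts. The labelling kit primes on poly(A) tails, which mature snoRNAs lack, so these probes can read unspliced host RNA or other tailed RNA beside the snoRNA itself, and which of these they read was not tested. On the FaDu miR-99a-3p array 4 of the 25 were lower by 1.5-fold and 3 were higher, below the 19.4% and 18.1% of all genes, and their median was -0.24. On the PC3 miR-99a-3p array 23 were detected, 3 were lower, a share below the 16.6% of all genes, and none was higher. Their median was 0.12.

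The 8 snoRNA probes of SNHG1 (SNORD22 and SNORD25 to SNORD31) gave higher ratios than the host on some arrays. The host gave -0.78 in PC3 with miR-99a-3p, while these probes ranged from -0.50 for SNORD28 to 0.43 for SNORD26, with a median of 0.19. With si-FOXQ1-1 in PANC-1 the host gave -0.37 and all 8 probes lay above 0, up to 0.82. With miR-150-5p and miR-150-3p in PC3 the host lay within the range of the probes. They were all below 0 in FaDu with miR-99a-3p, from -0.74 for SNORD30 to -0.01 for SNORD29, beside -0.48 for the host. The 7 snoRNA probes of GAS5 (SNORD44, SNORD47, SNORD74, SNORD75, SNORD76, SNORD77 and SNORD80) ranged from -0.98 for SNORD77 to 0.17 for SNORD80 in FaDu with miR-99a-3p, and the median was -0.35. SNORD75 and SNORD77 were detected on 4 arrays only and were dim, with mean Cy3 signals of 27.9 and 26.5. Their scanner errors in FaDu with miR-99a-3p were 0.35 and 0.43, and the median given is the value of SNORD75. The highest ratio among snoRNA probes was that of SNORD74 with si-FOXQ1-1, at 1.42, from a probe with a mean Cy3 signal of 103.

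SNHG8 and SNORA24 moved in opposite directions in FaDu with miR-99a-3p, with -1.58 for the host and 0.92 for the snoRNA probe. With miR-99a-3p in PC3 they gave -0.60 and -0.51. Within SNHG12 the 4 snoRNA probes split in PC3 with miR-99a-3p, where the host gave -0.89. SNORD99 gave -1.09 and SNORA61 -0.59, while SNORA44 gave 0.33 and SNORA16A 0.44. On the FaDu array SNORA44 gave 0.90 and SNORA61 0.60, SNORD99 gave -0.32, and SNORA16A gave -0.69. The probe of SNORD87 in SNHG6 stayed between -0.14 and 0.30 on all arrays, and that of SNORA9 in SNHG15 between -0.03 and 0.28. The 3 probes of ZFAS1 snoRNAs gave -0.42 to -0.18 in FaDu with miR-99a-3p, beside -1.01 for the host, and with miR-150-5p SNORD12C reached 0.65.

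Further probes lie on the strand of a host gene under other names, 3 in GAS5 and 1 in SNHG1. They were looked up after the values of the hosts had been seen. Under miR-99a-3p in FaDu, 2 of the 3 in GAS5, lying 1294 and 1960 bases upstream of the brightest GAS5 probe, gave -1.85 and -1.74. The third, 589 bases upstream and between the probes of SNORD47 and SNORD80, gave 0.07. The probes 589 and 1294 bases upstream are both named lnc-SERPINC1-1, so the name has no single ratio. In PC3 the first pair gave 0.06 and 0.11, close to the GAS5 probes, and the third gave -0.68, close to -0.72 for the neighbouring SNORD47. The additional probe in SNHG1 gave -0.97 in PC3 and -0.70 in FaDu with miR-99a-3p, on the side of the host probes in both lines. In the GAS5 locus these probes thus formed 2 groups, made after the values were seen, which differed in opposite directions in FaDu and PC3. Not every probe of the locus falls in a group. SNORD44 gave -0.02 in FaDu and -0.06 in PC3 with miR-99a-3p, and SNORD75 and SNORD77 were not detected in PC3.

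**Figure D3:**
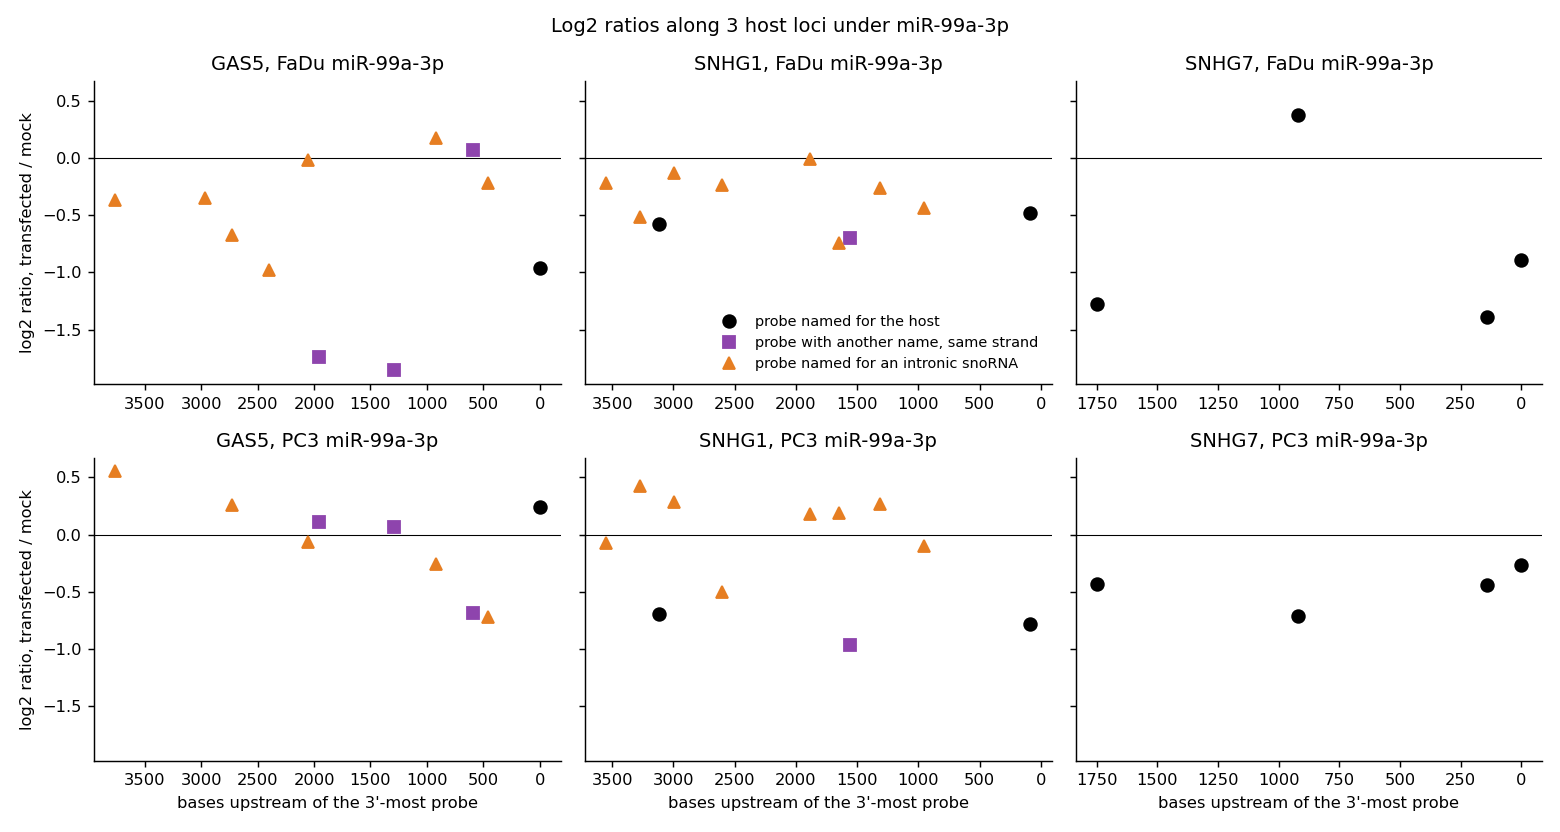
Log2 ratios along GAS5, SNHG1 and SNHG7 with miR-99a-3p in FaDu (upper row) and PC3 (lower row) against the distance in bases upstream of the probe nearest the 3′ end. Circles are probes named for the host, squares are same-strand probes with other names and triangles are snoRNA probes. Squares in GAS5 split into -1.85, -1.74 and 0.07 in FaDu, and the SNHG7 probe at 0.37 in FaDu is the lowest of its gene in PC3. The other GAS5 probe is not drawn, since its position in the files covers only 18 bases.

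The mock channels gave the level of each host in untransfected cells of the lines. These levels are log2 Cy3 signals after normalization between arrays, and each is compared with the same probe only. Means of 2 lines were called different when they were over 2-fold apart and the mock channels did not overlap. FaDu was higher than PC3 in 4 of the 10 genes and lower in none, while over all genes with signal 12.2% were higher and 14.3% lower. PANC-1 was higher than PC3 in 4 and lower in none (9.27% of all genes higher, 10.3% lower). FaDu was higher than PANC-1 in 1 and lower in none (11.4% higher, 12.7% lower).

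SNHG7 and SNHG5 differed most between lines. The SNHG7 signal was 15.24 and 15.39 in the FaDu mock channels, 13.44 and 13.27 in PANC-1, and 11.70, 11.61, 11.41 and 11.35 in PC3. FaDu was thus 13.9-fold above PC3 and 3.89-fold above PANC-1, with no overlap. The fold depends on the probe, and at base 1814 FaDu was 2.16-fold above PC3 and 2.09-fold above PANC-1. The SNHG5 signal was 15.88 and 16.26 in FaDu, 15.76 and 15.58 in PANC-1, and 12.47 to 12.62 in PC3. FaDu and PANC-1 lay 11.4-fold and 8.61-fold above PC3 (10.9-fold to 18.9-fold and 8.19-fold to 12.2-fold over its 6 probes), and they differed from each other by 1.32-fold.

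GAS5 gave 15.95 and 16.26 in FaDu, 15.52 and 15.47 in PANC-1 and 13.68 to 13.94 in PC3, so that FaDu was 4.92-fold and PANC-1 3.23-fold above PC3. The other GAS5 probe gave 8.87-fold and 4.34-fold. SNHG8 was 2.83-fold higher in FaDu than in PC3 and 1.99-fold higher than in PANC-1, just short of the fold for a call. SNHG15 was 2.17-fold higher in PANC-1 than in PC3. With their brightest probes SNHG1, SNHG3, SNHG6, SNHG12 and ZFAS1 differed by no more than 1.70-fold between any pair of lines. The SNHG6 probe at base 158 gave 1.95-fold between FaDu and PANC-1, under the fold for a call. Of the 6 genes lowered in FaDu with miR-99a-3p, SNHG5, SNHG7, SNHG8 and GAS5 were those whose mock level was higher in FaDu than in PC3, and SNHG6 and ZFAS1 were not called.

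**Figure D4:**
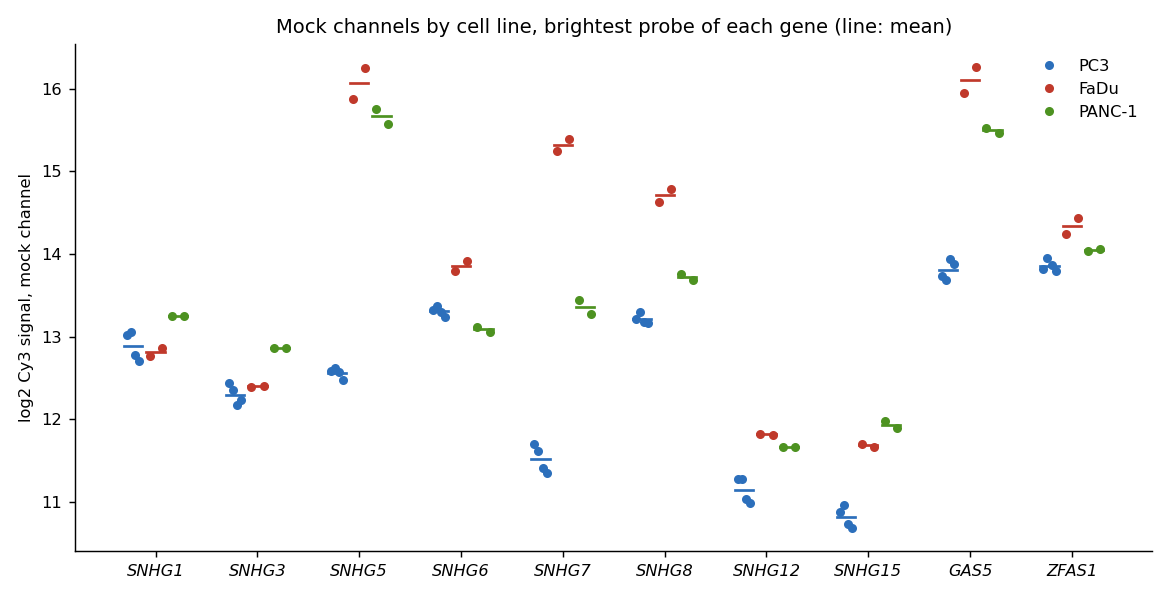
Log2 Cy3 signal of each mock channel (points) for the brightest probe of the 10 genes, in PC3 (4 channels), FaDu (2) and PANC-1 (2), with the mean as a line. The PC3 channels of SNHG5, SNHG7, SNHG8 and GAS5 lie below all FaDu channels, with means over 2-fold apart. Those of SNHG6, SNHG12, SNHG15 and ZFAS1 also lie below, with means less than 2-fold apart, and those of SNHG1 and SNHG3 overlap with FaDu. For SNHG1 the PC3 channels form pairs, with 13.02 and 13.06 on the miR-150 arrays against 12.78 and 12.70 on the miR-99a-3p and miR-100-3p arrays.

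The PC3 mock channels of SNHG1, SNHG3, SNHG7, SNHG12 and SNHG15 lay in pairs. Those of the miR-150 arrays were above those of the miR-99a-3p and miR-100-3p arrays. The same order held with smaller gaps for SNHG5, SNHG6 and SNHG8, and it did not hold for ZFAS1. For GAS5 the order was the opposite, with 13.73 and 13.68 below 13.94 and 13.87. For SNHG12 the channels were 11.28 and 11.27 against 11.03 and 10.99. The labels do not say whether mock RNA of a line came from separate cultures, so the mean of all mock channels of the line was tried as the control. SNHG1 with miR-150-3p then gave -0.26 in place of -0.48, and with miR-99a-3p -0.85 in place of -0.78. The 4 genes past the fold in PC3 with miR-99a-3p were past it with that control too. In FaDu the mock channel was higher on the miR-99a-3p array than on the miR-99a-5p array for all genes but SNHG12 and SNHG15. The gap was largest for SNHG5, with 16.26 against 15.88. With the mean as control SNHG5 gave -1.11 in place of -1.30 and ZFAS1 -0.81 in place of -1.01 on the miR-99a-3p array. SNHG6 gave -0.51 in place of -0.64 and was no longer past the fold.

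Other genes of the same pathways were described by lists chosen with earlier results of these data known. Among 15 other mRNAs known as TOP mRNAs, 8 were lower by 1.5-fold and none was higher in FaDu with miR-99a-3p, against 19.4% and 18.1% of all genes, and the median was -0.66. GNB2L1, the ribosomal scaffold protein RACK1, was lowest at -1.13, and PABPC1, the poly(A)-binding protein, was highest at -0.07. The elongation factors EEF2, EEF1G and EEF1D gave -0.66, -0.67 and -0.72. On the other 7 arrays the median of this list lay between -0.29 and 0.10, and 1 gene at most was lower by 1.5-fold on any of them.

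Ribosomal protein mRNAs moved less. Of 75 detected in FaDu with miR-99a-3p, 7 were lower and 1 was higher, a share of 9.33% lower against 19.4% of all genes, and the median was -0.17. RPS3 was lowest at -0.89 and RPS2 highest at 0.83. Under miR-99a-3p in PC3 none of 77 was lower or higher, and the median was 0.02.

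**Figure D5:**
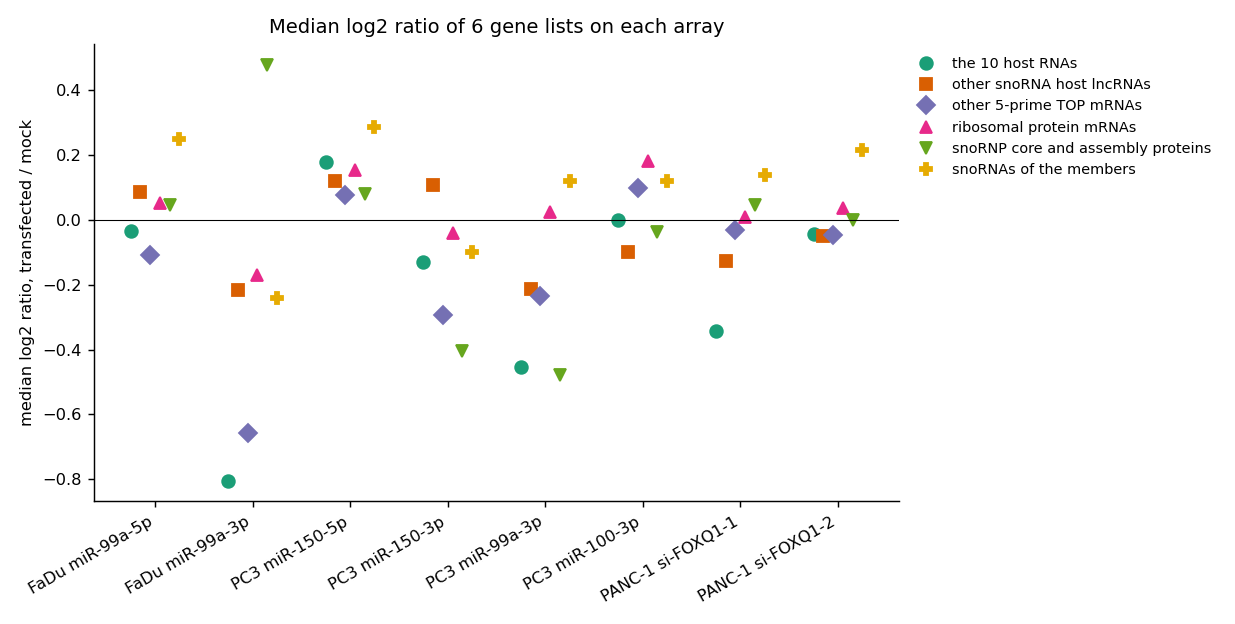
Median log2 ratio of transfected over mock cells (vertical axis) for 6 gene lists on each array (horizontal axis). In FaDu with miR-99a-3p the host RNAs (-0.80) and other TOP mRNAs (-0.66) are lowest and snoRNP proteins (0.48) highest, and in PC3 with miR-99a-3p the snoRNP proteins (-0.48) lie beside the host RNAs (-0.45).

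The medians of the proteins that assemble with snoRNAs had opposite signs in the lines. Under miR-99a-3p in FaDu 4 of 17 snoRNP core and assembly genes were higher, a share near the 18.1% of all genes, and 1 was lower against 19.4%. The median was 0.48. NOLC1, a chaperone of snoRNPs, was highest at 0.97, and the assembly factor ZNHIT3 was lowest among those above background in both channels, at -0.51. Of 16 detected in PC3 with this microRNA, 7 were lower, against 16.6% of all genes, and none was higher. The median was -0.48. There the ATPase RUVBL2 gave -1.01, the C/D core protein NOP56 -0.98 and the pseudouridine synthase DKC1 -0.81, and ZNHIT6 was highest at 0.07. With miR-150-3p 6 of 17 were lower, against 14.7% of all genes, with a median of -0.40.

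Of 11 further snoRNA host noncoding RNAs with a probe, 1 was lower and 4 were higher in FaDu with miR-99a-3p, against 19.4% and 18.1% of all genes, and the median was -0.22. EPB41L4A-AS1, the host of SNORA13, was lowest at -1.85, and SNHG4 was highest at 1.62, from a dim probe with a mean Cy3 signal of 54.1. Under miR-99a-3p in PC3 3 of 11 were lower, against 16.6% of all genes, and none was higher. SNHG16 was lowest among those above background in both channels, at -0.73, and EPB41L4A-AS1 was highest at 0.57. EPB41L4A-AS1 thus had the signs of GAS5 in both lines, which is a description of 2 arrays.

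Factors of nonsense-mediated decay moved little as a list. On the FaDu miR-99a-3p array 1 of 15 was higher and 2 were lower, below the 18.1% and 19.4% of all genes, with a median of -0.05. There UPF1, the central helicase, gave 0.79 and its partner UPF2 -0.97. UPF1 gave -0.90 with miR-150-3p, the lowest of the list on that array. Among 13 genes of the mTORC1 pathway 5 were higher and 1 was lower in FaDu with miR-99a-3p, against 18.1% and 19.4% of all genes. Of the 5, DEPTOR at 0.60 ± 0.45 and EIF4E at 0.65 ± 0.21 passed the fold by less than their scanner errors. EIF4EBP2 was highest at 0.99 and EIF4EBP1 lowest at -1.28. Both encode repressors of the cap-binding protein eIF4E.

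The genes beside the hosts were measured as well. SLC3A2, an amino acid transporter subunit next to SNHG1, gave -2.06 in FaDu with miR-99a-3p and -0.48 in PC3, where SNHG1 gave -0.48 and -0.78. RCC1, which shares its locus with SNHG3, gave -1.75 in PC3 with miR-99a-3p and 0.75 in FaDu, and SNHG3 had the same signs with -0.65 and 0.33. ZNFX1, opposite ZFAS1, gave 0.75 in FaDu with miR-99a-3p, against -1.01 for ZFAS1. TRNAU1AP beside SNHG12 gave 0.33 in PC3 with miR-99a-3p. PRSS12 beside SNHG8 and ZBTB37 beside GAS5 were dim, with mean Cy3 signals of 61.1 and 49.1, and gave -0.21 and -0.44 in FaDu with miR-99a-3p. MYO1G and TCF24 were not detected on any array.

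The ratios of 13233 genes above background in both channels of all arrays were set against the median of the 10 hosts over the 8 arrays. The highest Pearson correlations were 0.965 for lnc-BAI3-3, 0.964 for CPSF4, 0.954 for OCEL1, 0.953 for LINC01315 and 0.952 for RPS6. These values come from 8 arrays that share a slide and mock RNA of 3 lines, and they are the top of many genes. RPS6, a ribosomal protein gene, gave -0.42 in FaDu and -0.27 in PC3 with miR-99a-3p, while OCEL1 gave -1.15 and -0.59.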

How the data were processed

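Expression was measured on 8 Agilent 2-colour arrays, 1 per condition, with mock cells in Cy3. The authors' scanner software (Feature Extraction 10.7.3.1) subtracted background, balanced the dyes (linear, then lowess) and produced the deposited log10 ratios, Cy5 over Cy3, each with an error. The deposited Cy3 and Cy5 intensities are the processed signals of the same run and were not scaled between arrays. The values deposited for the whole series differed from the scanner log10 ratios by 0 at most.

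Log10 ratios were multiplied by 3.3219. Controls were excluded, as were spots flagged in either channel as non-uniform or as population outliers. A gene was its brightest probe, detected where well above background in at least 1 channel. Called means at least 1.5-fold. Ratios of the spike-in controls had slopes of 0.882 to 0.900, so ratios are compressed. Mock levels used limma 3.58.1 (R 4.3.3) with normexp (offset 50), loess and Aquantile, tested on simulated data. Other steps used Python 3.11.15 and pandas 2.3.3. The file names give the arrays 1 slide barcode. The number of arrays limits the precision.

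Genes named are the 10 hosts, FOXQ1, the markers, genes beside the hosts, the hosts' snoRNAs, the lowest and highest of each list, and the 5 most correlated genes. EEF2, EEF1G, EEF1D, NOP56, DKC1, DEPTOR and EIF4E were named after their values were seen. Members and lists were chosen with earlier results of these data known. Alternatives were other normalization, probes, filters, controls and thresholds.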

Additional observations from a re-analysis of the deposited data

Results flagged for a closer look

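With their brightest probes, GAS5 and SNHG3 had ratios of opposite sign under miR-99a-3p in the lines that received it. The GAS5 ratio was -0.96 ± 0.22 in FaDu and 0.24 ± 0.21 in PC3, a difference of 1.21 on the log2 scale. The other GAS5 probe gave -2.51 in FaDu and 0.18 ± 0.20 in PC3. GAS5 was also above 0 on the other PC3 arrays, at 0.42, 0.30 and 0.37. The SNHG3 ratio was 0.33 ± 0.21 in FaDu and -0.65 ± 0.21 in PC3, a difference of -0.98. Neither positive ratio passed 1.5-fold. With 1 array per line the difference between lines was not tested.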

How the results depend on the processing

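All 72 medians of the 10 genes under the alternatives stayed within the median scanner error of the value reported. Of 160 counts of genes past the fold, 154 were within 1.5 times the value reported. With the lowest probe of each gene, 1 gene was lower in FaDu with miR-99a-5p and 1 in PC3 with miR-150-3p (0 each as reported), and 2 in PANC-1 with si-FOXQ1-1 (1 as reported). The mean over probes also gave 1 with miR-150-3p. At a 2-fold threshold 0 were lower in PC3 with miR-99a-3p (4 as reported) and 0 with si-FOXQ1-1. FaDu mock channels were higher than PANC-1 in 4 genes at 1.5-fold and in 2 with processed Cy3 signals less the 75th percentile (1 as reported). Of 720 single ratios, 702 stayed within the scanner error, 18 moved further and none past the fold changed sign. No paired analysis was possible because conditions were hybridised once each.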
